A study of Homo sapiens with 18 samples.

Results

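The autosomal DNA methylomes of HCT15, a colorectal carcinoma cell line, and DU145, a prostate cancer cell line, were compared CpG by CpG and promoter by promoter. The comparison used 4 of the 18 libraries of the series, namely 1 reduced representation bisulfite sequencing (RRBS) library and 1 MethylCap library of each line. RRBS counts, at single CpGs, how many bisulfite-treated reads still carry a cytosine, and MethylCap pulls down methylated DNA fragments with a methyl-binding domain before sequencing. Both lines were grown in the medium recommended by ATCC without any treatment, and DNA was extracted with the same kit. The labels give ATCC as the source of both lines, while the study's methods name another laboratory for DU145 and a later passage for it than for HCT15. A CpG was used when it was on an autosome and was covered by at least 20 reads in both RRBS libraries, which held for 1115621 of the 3427558 CpGs present in either file. The promoter of a gene was the window of 1000 bp on either side of its 5′ end in GENCODE 44 on GRCh37, and it was used when at least 5 such CpGs lay in it, which held for 19758 of 61221 autosomal genes. Each line had 1 RRBS library, so no difference between promoters has a replicate check, and tests on reads compare these libraries rather than colorectal with prostate cancer cells. Beside the 4 libraries, the RRBS library of PC3, another prostate cancer line, was read at the same promoters. MethylCollector and MethylMiner, other capture kits, gave further libraries of HCT15 and DU145.

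DNA methylation in mammals falls mainly on the cytosine of CpG dinucleotides. Most CpGs of the genome lie scattered and are methylated, while the dense clusters called CpG islands, found at most housekeeping and many developmental promoters, are usually free of methylation. In cancer cells a subset of islands gains methylation, which often accompanies silencing of the gene, while scattered CpGs outside islands can lose it.

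The median coverage at the CpGs used was 34 reads in HCT15 and 62 in DU145. Just inside the coverage limit, 58290 CpGs had exactly 20 reads in the shallower library, and 54172 more would have entered at 19. Among promoters, 1073 had exactly 5 CpGs and 1230 stayed out with 4. One class of CpGs stood apart in both libraries. A total of 317044 CpGs (28.4%) lie inside the tetranucleotide CCGG, and in promoter stretches with at least 40 CpGs per 500 bp these CpGs had a mean methylation of 59.2% in HCT15 and 55.5% in DU145. The other CpGs of the same stretches had means of 19.2% and 10.4%, with medians of 0% and 0.844%. Their part in the results was measured by leaving them out. The 9413 promoters below 20% in both lines had medians of 12.2% and 12.5% with all CpGs and of 2.20% and 2.45% without those in CCGG, and some results are therefore given also without CCGG. Without CpGs in CCGG, 1862 of the 1949 promoters called higher in HCT15 and 244 of the 352 called higher in DU145 could still be measured. Of these, 1861 and 244 were called again. Leaving these CpGs out lowered mainly the value of the less methylated line, so few calls could be lost by it. The promoters with fewer than 5 CpGs left were not checked.

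Sequences directly before the 5′ end are shown for promoters with large differences, because they show which CpGs were read. Each is given 5′ to 3′ along the gene's strand from GRCh37, overlaps no annotated exon, and has the CpGs that RRBS measured in both lines in capitals. NALCN (chr13:102068860-102069159, minus strand) and MIPOL1 (chr14:37666799-37667098, plus strand) had the largest differences toward HCT15, and ACTL10 (chr20:32254509-32254748, plus strand) stood just behind H2BC6 among those toward DU145 that had MethylCap fragments. H2BC6 has an annotated exon directly before its 5′ end, and the stretch of C2CD4D, the next gene, holds no CpG. BNIP3 (chr10:133795472-133795771, minus strand) and HNF4A (chr20:42984039-42984338, plus strand) were added after their values were seen.
NALCN: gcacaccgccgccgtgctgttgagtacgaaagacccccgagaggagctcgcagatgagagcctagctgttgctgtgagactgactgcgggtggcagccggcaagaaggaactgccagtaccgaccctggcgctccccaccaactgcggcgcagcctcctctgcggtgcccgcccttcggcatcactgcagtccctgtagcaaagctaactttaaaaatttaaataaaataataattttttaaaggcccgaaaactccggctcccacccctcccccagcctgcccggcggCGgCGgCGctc
MIPOL1: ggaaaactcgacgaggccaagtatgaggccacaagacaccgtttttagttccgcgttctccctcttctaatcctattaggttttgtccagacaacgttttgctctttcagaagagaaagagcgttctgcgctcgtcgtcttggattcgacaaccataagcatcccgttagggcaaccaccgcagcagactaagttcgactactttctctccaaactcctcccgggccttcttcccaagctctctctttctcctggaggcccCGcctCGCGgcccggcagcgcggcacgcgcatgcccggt
BNIP3: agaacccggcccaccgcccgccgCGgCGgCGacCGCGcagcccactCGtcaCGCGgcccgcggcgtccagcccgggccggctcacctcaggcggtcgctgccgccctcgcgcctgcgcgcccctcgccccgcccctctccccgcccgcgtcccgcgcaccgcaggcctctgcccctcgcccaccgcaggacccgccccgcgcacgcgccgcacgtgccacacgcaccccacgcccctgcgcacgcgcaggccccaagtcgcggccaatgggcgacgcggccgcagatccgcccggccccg
ACTL10: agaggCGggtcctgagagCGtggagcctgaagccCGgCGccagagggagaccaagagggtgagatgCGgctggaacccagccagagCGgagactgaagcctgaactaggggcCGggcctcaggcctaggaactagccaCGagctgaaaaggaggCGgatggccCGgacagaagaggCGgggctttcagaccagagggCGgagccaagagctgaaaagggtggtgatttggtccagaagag
HNF4A: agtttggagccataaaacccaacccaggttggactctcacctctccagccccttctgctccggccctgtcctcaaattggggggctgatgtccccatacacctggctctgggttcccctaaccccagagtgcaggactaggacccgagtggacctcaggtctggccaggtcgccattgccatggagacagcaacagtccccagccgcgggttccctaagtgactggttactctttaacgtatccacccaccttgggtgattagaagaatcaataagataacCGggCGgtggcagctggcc

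At the 3 measured CpGs before NALCN, the HCT15 library had 18 of 20, 20 of 20 and 20 of 20 reads methylated, and the DU145 library 0 of 144 at each. The 3 CpGs before MIPOL1 were methylated at between 94.9% and 97.5% in HCT15 and at up to 1.04% in DU145. The 8 CpGs before BNIP3 ranged from 94.1% to 100% in HCT15 and from 0% to 1.71% in DU145. Before these 3 genes every measured CpG was thus nearly fully methylated in one line and nearly free of methylation in the other. The stretch before ACTL10 showed the opposite, with 9 CpGs outside CCGG between 0% and 5.41% in HCT15 and between 70.6% and 100% in DU145. Its 3 CpGs inside CCGG had higher values in HCT15, from 31.5% to 51.4%. Before HNF4A, the CpG that lies 15 bases from the 5′ end had 0 of 28 reads methylated in HCT15 and 32 of 32 in DU145. The neighbouring CpG at 19 bases, inside CCGG, had 15 of 29 and 36 of 36.

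The mean methylation over all CpGs was nearly equal, with 59.9% in HCT15 and 59.8% in DU145, but it was distributed differently along the genome. Methylation differed by less than 10 percentage points at 68.2% of CpGs. By Fisher's exact test on the reads of each CpG (two-sided, Benjamini-Hochberg adjusted p below 0.05 and a difference of at least 25 points), 92169 CpGs (8.26% of those tested) were higher in HCT15 and 82483 (7.39%) were higher in DU145. Differences of at least 50 points were found at 50749 CpGs toward HCT15 and at 29295 toward DU145. HCT15 thus had the higher value at most CpGs with the largest differences. In absolute state, 26952 CpGs were above 80% in HCT15 and below 20% in DU145, and 9101 were the reverse.

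The direction of the difference followed CpG density. Where 1 to 4 CpGs lay in the surrounding 500 bp, the mean was 73.1% in HCT15 and 83.8% in DU145. Where 10 to 19 lay there, the means were 81.2% and 88.0%. From 30 CpGs on the order turned, with 53.6% and 49.6% at 30 to 39 CpGs and 32.9% and 24.2% at 40 or more. The share of CpGs called higher in HCT15 rose along these classes from 1.81% to 15.0%, and the share called higher in DU145 fell from 17.5% to 1.84%. The same turn was seen without CpGs in CCGG, with 68.2% and 80.6% in the sparsest class and 26.6% and 16.9% in the densest.

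**Figure D1:**
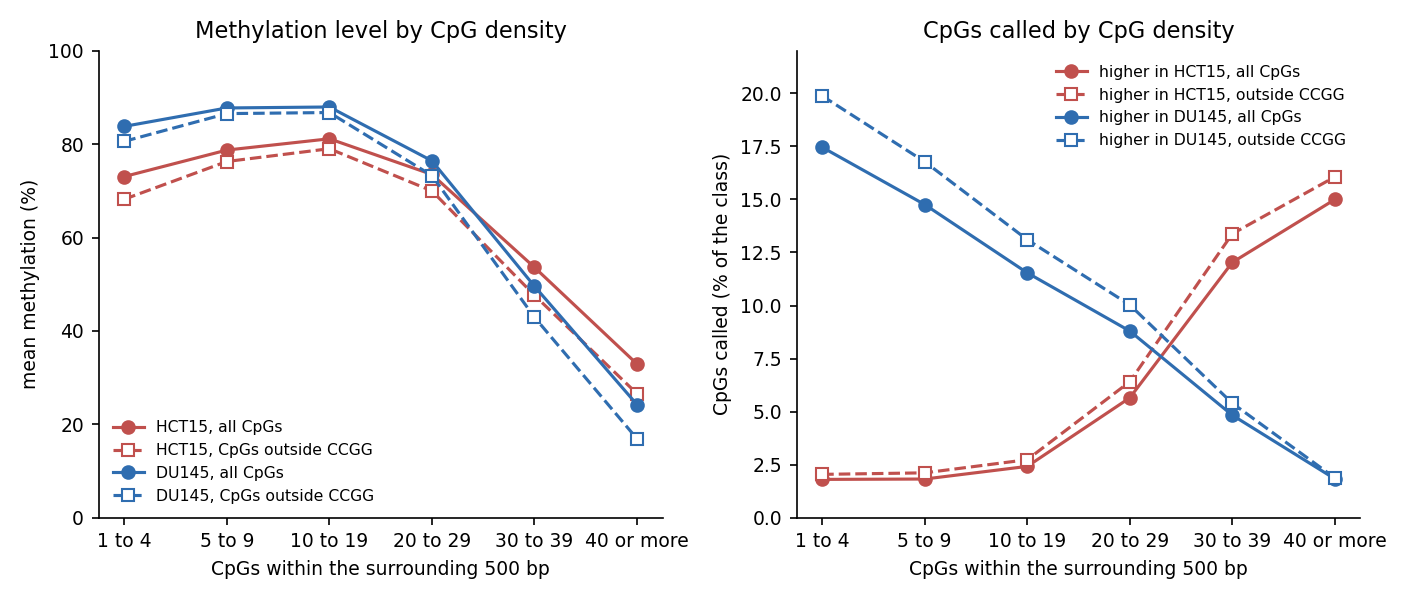
Mean methylation in percent (left) and the percentage of CpGs called in each direction (right) against the number of CpGs within 500 bp, for HCT15 (red) and DU145 (blue), with all CpGs (filled circles) and without those in CCGG (open squares). DU145 lay above HCT15 at sparse CpGs and below it from 30 CpGs per 500 bp on, with 32.9% in HCT15 and 24.2% in DU145 in the densest class.

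Annotation gave the same contrast. CpGs within 1000 bp of a 5′ end averaged 34.0% in HCT15 and 28.4% in DU145. Intronic CpGs averaged 75.1% and 79.3%, and intergenic CpGs 74.7% and 79.6%. Exonic CpGs outside promoters lay between these, with 73.6% and 72.0%. Density separated the lines also within a class of annotation, since promoter CpGs with fewer than 20 CpGs per 500 bp averaged 72.6% in HCT15 and 78.7% in DU145, against 30.6% and 23.9% for the denser promoter CpGs.

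At promoters the asymmetry was larger. A promoter was called when the mean over its CpGs differed by at least 30 points, a rule of size without a test. Of the 19758 promoters, 1949 (9.86%) were higher in HCT15 and 352 (1.78%) were higher in DU145. Since neighbouring genes share windows, these lay in 1568 and 301 separate regions. Among protein-coding genes, 1296 of 12264 promoters were higher in HCT15 and 124 in DU145. Among genes of long non-coding RNAs the numbers were 507 and 135 of 5150, and among microRNA genes they were nearly even, with 32 and 27 of 444. Near the limit, 104 promoters lay within 2 points above it and 128 within 2 points below it toward HCT15, and 34 and 46 toward DU145.

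Promoters called higher in HCT15 had a median methylation of 90.3% in HCT15 and 26.3% in DU145, and those called higher in DU145 had medians of 33.7% and 89.6%. With all CpGs, full switches were rarer: 387 promoters were above 80% in HCT15 and below 20% in DU145, and 33 were the reverse. Without CpGs in CCGG, the medians were 90.6% and 17.1% at the 1862 promoters higher in HCT15 still measured. At the 244 higher in DU145 they were 16.1% and 86.9%. The lower medians thus fell below 20%, and full switches were not counted without these CpGs. Promoters called higher in HCT15 were rich in CpGs, with a median of 119 CpGs in the window against 107 for all measured promoters, while those called higher in DU145 had a median of 66. Where a window held 200 CpGs or more, 15.5% of promoters were called toward HCT15 and 0.253% toward DU145, and where it held fewer than 50, the shares were 2.67% and 6.56%. The direction of a promoter's difference therefore followed its CpG content, as it did for single CpGs.

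**Figure D2:**
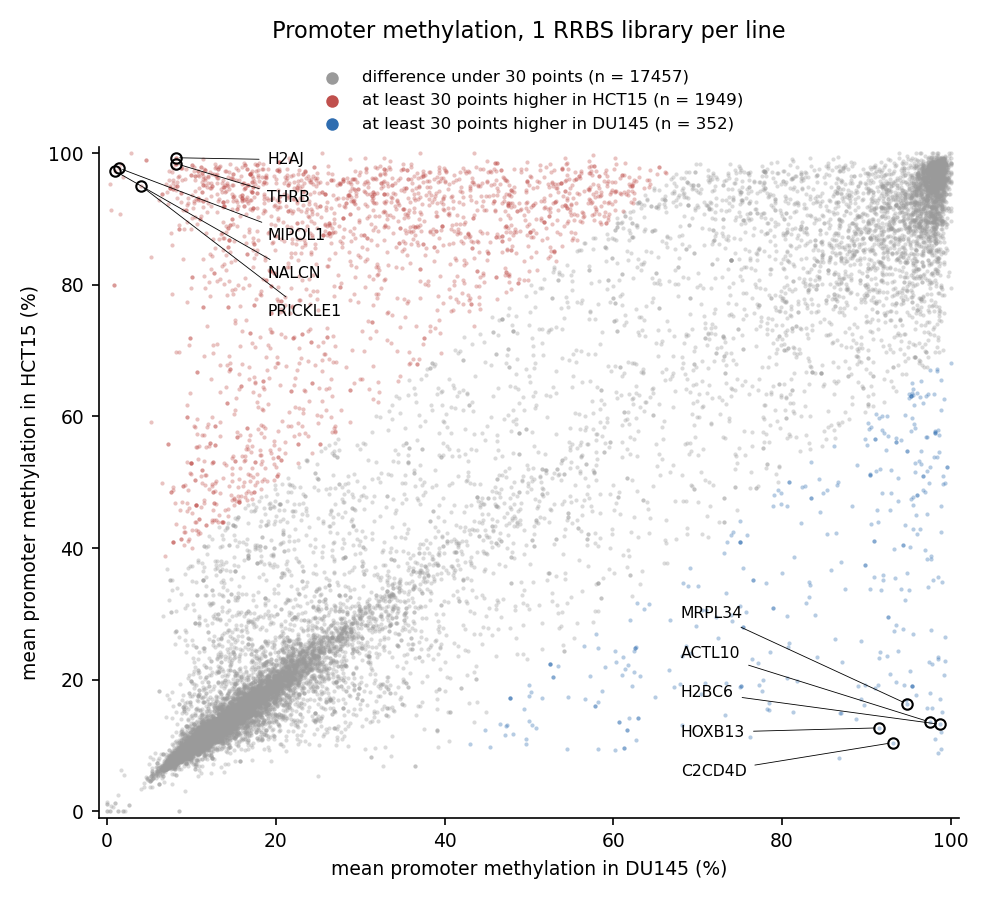
Mean methylation of each of 19758 promoters in DU145 (x axis, percent) and HCT15 (y axis, percent), 1 point per gene, red where HCT15 was at least 30 points higher, blue where DU145 was, grey otherwise, with 5 of the named genes circled at each end. The 1949 red points gather along the top of the plot and outnumber the 352 blue points at the lower right.

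Averaged over the protein-coding promoters called, the lines differed in every bin of the window. In those higher in HCT15, the mean of the CpGs in each bin of 100 bp lay between 76.6% and 87.0% in HCT15. DU145 fell from 50.3% at the upstream edge to 22.2% just before the 5′ end. In those higher in DU145, DU145 lay between 61.7% and 94.8% and HCT15 between 18.97% and 51.1%. Promoters not called fell in both lines to a low directly before the 5′ end, where the means were 14.7% and 14.5%. These curves describe promoters chosen by the same values. Each bin averages CpGs of different promoters, so the curves do not show that the difference spans the window of a single promoter.

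**Figure D3:**
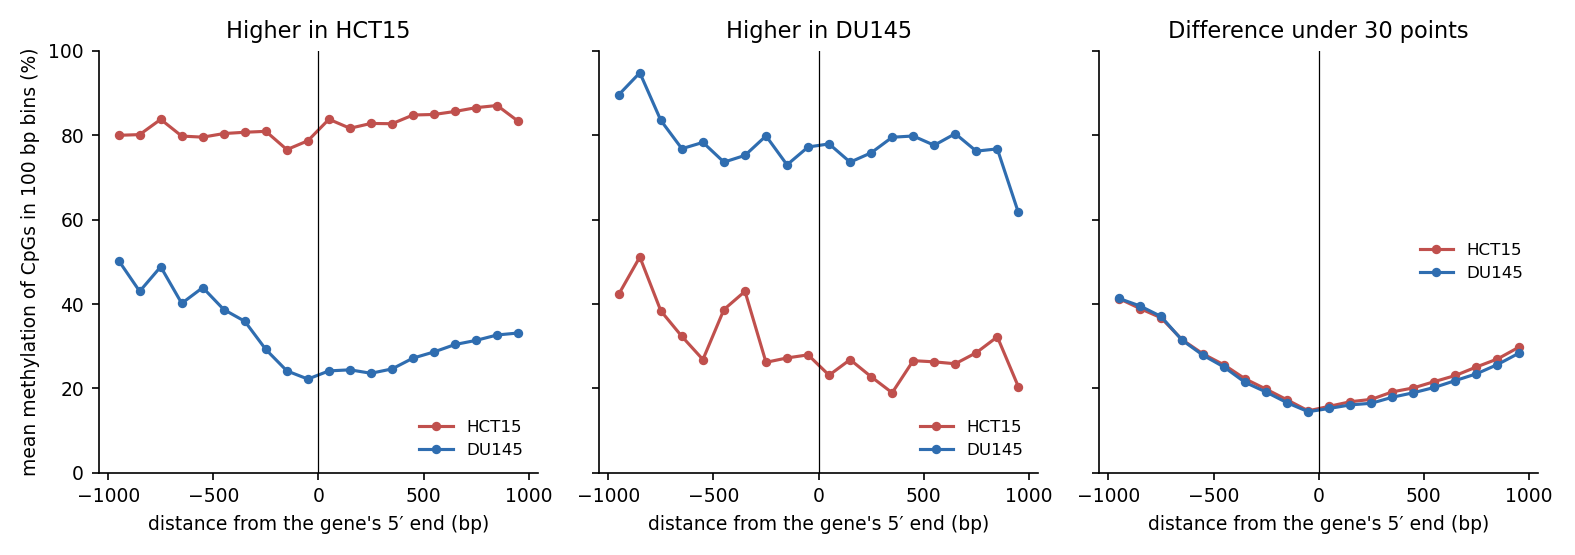
Mean methylation in percent of CpGs in bins of 100 bp against the distance from the 5′ end (negative values upstream), in HCT15 (red) and DU145 (blue), for protein-coding promoters called higher in HCT15, higher in DU145 and not called. In the first panel HCT15 stayed between 76.6% and 87.0% across the window while DU145 fell to 22.2% before the 5′ end.

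The 10 protein-coding promoters with the largest differences toward HCT15, among those with at least 10 CpGs and a MethylCap fragment in either line, were above 95% in HCT15 and below 9% in DU145. Values are given as the mean over the CpGs of the promoter ± SD over these CpGs, with n the number of CpGs, and the window of each promoter in GRCh37 coordinates. NALCN (chr13:102067859-102069859), a sodium leak channel, had 97.3% ± 5.40 in HCT15 and 0.913% ± 1.35 in DU145 (n = 17). All its CpGs were called, and pooling their reads gave 95% Wilson intervals of 95.04% to 98.5% and 0.682% to 1.503%. These cover counting error only and are too narrow even for that, because a read over several CpGs was counted at each. MIPOL1 (chr14:37666099-37668099), which encodes a coiled-coil protein, had 97.7% ± 3.13 and 1.38% ± 1.502 (n = 12). H2AJ (chr12:14926339-14928339), a histone H2A variant, had 99.3% ± 1.92 and 8.11% ± 17.9 (n = 20).

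PRICKLE1 (chr12:42983157-42985157), of the planar cell polarity pathway, had 95.1% ± 5.57 in HCT15 and 3.97% ± 12.6 in DU145 (n = 33). THRB (chr3:24536247-24538247), the thyroid hormone receptor beta, had 98.4% ± 2.60 and 8.13% ± 16.9 (n = 17). GNB4 (chr3:179168264-179170264), a G protein beta subunit, had 97.8% ± 4.12 and 7.79% ± 18.6 (n = 51), and all its 51 CpGs were called. BNIP3 (chr10:133794471-133796471), which acts in mitophagy and cell death, had 97.2% ± 3.35 and 7.67% ± 18.4 (n = 36). MPDZ (chr9:13278691-13280691), a scaffold of tight junctions, had 97.7% ± 3.69 and 8.70% ± 19.5 (n = 23). KRT7 (chr12:52625304-52627304), a keratin of simple epithelia, had 97.7% ± 2.79 and 8.87% ± 20.5 (n = 31), and RAB31 (chr18:9707272-9709272), a small GTPase of endosomes, had 96.0% ± 4.64 and 7.34% ± 20.2 (n = 27). The wide SDs in DU145 came with CpGs in CCGG: without them the DU145 means of BNIP3, KRT7 and RAB31 were 0.759%, 0.289% and 0.509%.

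Toward DU145 the 10 chosen by the same rule differed somewhat less. HOXB4, with 8.82% in HCT15 and 98.5% in DU145 (n = 34), had a larger difference than any of them but no MethylCap fragment in either line. H2BC6 (chr6:26171287-26173287), a histone H2B gene of the 6p22 cluster, had 13.2% ± 24.0 in HCT15 and 98.8% ± 1.47 in DU145 (n = 31). ACTL10 (chr20:32253749-32255749), an actin-like gene, had 13.6% ± 22.4 and 97.5% ± 4.603 (n = 50), with all 50 CpGs called. C2CD4D (chr1:151812033-151814033), of a family of calcium-dependent domain proteins, had 10.4% ± 18.8 and 93.1% ± 7.07 (n = 26). HOXB13 (chr17:46805112-46807112), a homeobox factor of the prostate and the posterior body, had 12.7% ± 21.7 and 91.5% ± 12.1 (n = 25). HNF4A (chr20:42983339-42985339), a nuclear receptor that specifies gut and liver epithelium, had 17.7% ± 24.7 and 95.9% ± 7.95 (n = 12).

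MRPL34 (chr19:17402418-17404418), of the mitochondrial ribosome, had 16.3% ± 23.2 in HCT15 and 94.8% ± 9.13 in DU145 (n = 26). LIF (chr22:30641748-30643748), a cytokine of the interleukin 6 family, had 17.0% ± 23.5 and 94.7% ± 8.04 (n = 27). SLC26A1 (chr4:986228-988228), a sulfate transporter, had 23.4% ± 25.9 and 98.5% ± 1.62 (n = 20). CHRM3 (chr1:239548865-239550865), a muscarinic acetylcholine receptor, had 14.0% ± 23.3 and 88.7% ± 12.5 (n = 31). TIMP3 (chr22:33196691-33198691), an inhibitor of metalloproteinases, had 17.1% ± 22.9 and 89.3% ± 14.2 (n = 17). Without CpGs in CCGG, HCT15 was between 2.15% and 8.42% at these 10 promoters.

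The gene lists below are read against the shares of all promoters, which were 9.86% toward HCT15 and 1.78% toward DU145. Of 12 measured genes of colon epithelium, 4 (33.3%) were higher in DU145, 0 were higher in HCT15 and the others were not called. Besides HNF4A these were ASCL2, a factor of intestinal stem cells, with 11.2% in HCT15 and 76.3% in DU145, TFF3, a mucosal peptide, with 52.9% and 95.7%, and CDX2, the caudal homeobox factor of the intestine, with 10.2% and 49.7%. TFF3 rested on 5 CpGs. Of the list, 4 genes were above 80% in both lines, such as the mucin MUC2 at 90.7% and 95.5%. Of 5 measured genes of prostate epithelium, HOXB13 alone was called, toward DU145. Its MethylCap fragments, 8 in HCT15 and 1 in the smaller DU145 library, were too few to show a direction. Of 11 measured genes of epithelial adhesion, 0 were called, and E-cadherin, CDH1, had 18.8% and 21.2%.

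Genes known from reports of hypermethylation in colorectal cancer were mostly higher in HCT15. Of 24 measured, 13 (54.2%, against 9.86% of all promoters) were called toward HCT15 and 0 (against 1.78%) toward DU145. IKZF1, the lymphoid zinc finger factor, had 96.1% and 14.9%, BCAT1, which degrades branched-chain amino acids, had 86.3% and 17.4%, SDC2, a syndecan, had 91.5% and 23.7%, and NDRG4, of the NDRG family, had 96.0% and 29.1%. Some members were methylated in both lines, such as NPY, a neuropeptide, at 93.8% and 82.8%. At the outermost 5′ end, the only one measured per gene, SEPTIN9 and SOCS1 were at 11.0% and 11.2% in HCT15 and at 10.9% in DU145. Internal promoters of these genes were not examined.

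Among 14 measured Wnt antagonists, 5 (35.7%, against 9.86% of all promoters) were higher in HCT15 and 0 (against 1.78%) in DU145. WIF1, which binds Wnt ligands, had 96.3% and 34.7%, SFRP5, a secreted frizzled-related protein, had 93.7% and 33.2%, and DKK3, of the Dickkopf family, had 93.1% and 35.7%. SFRP1 and SFRP2 were high in both lines, at 96.0% and 71.5% and at 89.0% and 97.2%. AXIN2, a negative feedback target of the pathway, was low in both, at 8.14% and 8.39%.

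Of 12 measured genes known from reports of hypermethylation in prostate cancer, 2 (16.7%, against 1.78% of all promoters) were higher in DU145 and 3 (25%, against 9.86%) in HCT15. GSTP1, a glutathione transferase, had 20.7% in HCT15 and 61.0% in DU145, and PTGS2, a prostaglandin synthase, had 24.8% and 62.6%. AOX1, an aldehyde oxidase, had 97.9% and 33.4%, TNFRSF10C, a decoy death receptor, had 64.2% and 18.6%, and HIC1, a zinc finger repressor, had 52.7% and 14.0%. RASSF1 was high in both, at 90.03% and 80.2%, and APC was low in both, at 14.0% and 13.6%.

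Homeobox, SOX and forkhead genes, which encode developmental transcription factors, were called toward HCT15 more often than the 9.86% of all promoters. Of 98 measured homeobox genes outside the HOX clusters, 37 (37.8%) were higher in HCT15 and 2 (2.04%, against 1.78% of all promoters) in DU145. LHX6 had 96.6% and 11.3%, MEIS1 95.3% and 16.0%, VAX2 94.5% and 16.2% and PITX3 91.7% and 17.7%, while EVX1 and CDX2 were the members higher in DU145. Of 16 SOX genes, 7 (43.8%) were higher in HCT15, led by SOX2, the pluripotency factor, with 97.8% and 11.1%, and SOX21 with 94.3% and 17.0%. Of 37 forkhead genes, 11 (29.7%) were higher in HCT15, with FOXI3 at 94.7% and 12.4% and FOXE1 at 92.9% and 10.8%. With all CpGs 0 were called toward DU145, but without CpGs in CCGG FOXL1 was, with 5.23% and 39.7%. Of 7 PAX genes 0 were called, with medians of 94.5% in HCT15 and 83.7% in DU145.

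The genes of the HOX clusters set position along the body axis. Of 38 measured, 11 (28.9%, against 1.78% of all promoters) were higher in DU145 and 3 (7.89%, against 9.86%) in HCT15. HOXB4 had 8.82% and 98.5%, HOXA3 19.04% and 95.4%, and HOXA9 51.6% and 97.1%. The genes toward HCT15 were HOXA5 with 83.9% and 11.4%, HOXC13 with 63.8% and 23.4%, and HOXD10 with 98.1% and 57.7%. Neighbours could differ: HOXA5 was called toward HCT15 while HOXA3, HOXA4, HOXA7 and HOXA9 of the same cluster were called toward DU145.

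Zinc finger genes of chromosome 19 gave the longest list. Of 167 measured, 53 (31.7%, against 9.86% of all promoters) were higher in HCT15 and 2 (1.20%, against 1.78%) in DU145. ZNF773 had 89.6% and 9.48%, ZNF582 88.5% and 8.54%, ZNF772 98.6% and 20.3%, and ZNF134 91.1% and 13.0%. The remaining members included 58 that were below 20% in both lines. In the protocadherin clusters, whose genes encode cell surface adhesion proteins of neurons, 8 of 24 (33.3%) were higher in HCT15 and 2 (8.33%) in DU145. PCDHAC1 had 92.4% and 12.0%, and PCDHGA10 had 19.95% and 77.8%.

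**Figure D4:**
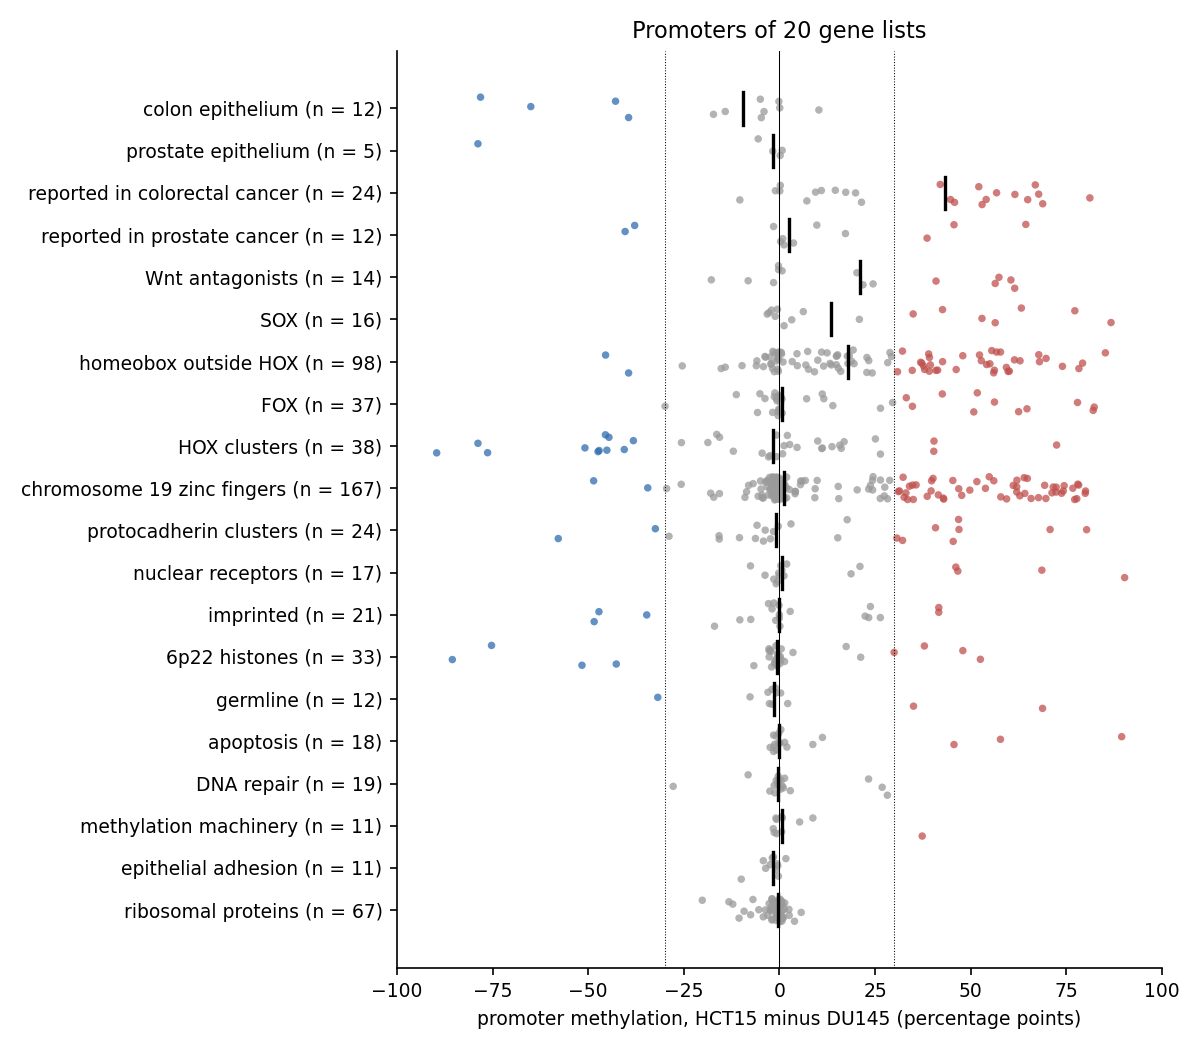
Difference in mean promoter methylation, HCT15 minus DU145 in percentage points, for each measured gene of 20 lists (n in brackets), red at 30 or more, blue at -30 or less, with the black bar at the list's median and dotted lines at the limits of a call. Of 24 genes reported in colorectal cancer 13 lie to the right of the limit, and of 38 HOX genes 11 lie to the left of it.

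Of 17 nuclear receptors, 4 (23.5%, against 9.86% of all promoters) were called toward HCT15. Besides THRB these were RORB with 99.2% and 30.6%, PGR, the progesterone receptor, with 65.9% and 19.2%, and RORA with 97.4% and 51.3%. Of these 4, THRB alone had more MethylCap depth in HCT15, and the median log2 difference was -0.30. Of 18 genes of apoptosis, 3 (16.7%) were higher in HCT15, including PYCARD, an inflammasome adaptor, with 95.8% and 37.97%. Of 33 histone genes at 6p22, 4 were higher in each line, which is 12.1% against 9.86% of all promoters toward HCT15 and against 1.78% toward DU145, with H2BC10 at 98.6% and 46.0%, H4C5 at 23.2% and 98.5%, and H2AC7 at 9.58% and 61.2%. Histone genes are near copies of each other, so reads can be hard to place among them.

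Imprinted genes carry methylation on the copy from one parent. Of 21 measured, 3 (14.3%, against 1.78% of all promoters) were higher in DU145 and 2 (9.52%, against 9.86%), which are 1 window, in HCT15. KCNQ1OT1 had 48.5% ± 17.5 in HCT15 and 97.0% ± 7.77 in DU145 (n = 48). H19 had 34.2% and 68.9%, and ZNF597 had 52.4% and 99.6% on 5 CpGs. PEG3, which shares its window with ZIM2, had 95.5% ± 4.76 and 53.8% ± 24.7 (n = 6). GNAS was not called at 88.3% and 61.9%, and MEST was low in both lines, at 17.5% and 18.9%.

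Other lists held few calls or none, against 9.86% of all promoters called toward HCT15 and 1.78% toward DU145. Of 67 ribosomal protein genes 0 were called, with medians of 15.8% and 15.9%, and 42 were below 20% in both lines. Of 6 genes of antigen presentation 0 were called, a list too short to be told apart from those shares. Of 19 genes of DNA repair 0 were called. MGMT, which removes alkyl groups from guanine, had 45.7% and 17.5%, just under the limit. Without CpGs in CCGG, 2 of the 17 repair genes still measured were called toward HCT15, MGMT with 43.9% and 6.92% and WRN with 46.99% and 15.5%. In that setting 11.6% of all promoters were called toward HCT15. Of 11 genes of the methylation machinery, 1 (9.09%) was called toward HCT15, which is near the 9.86% of all promoters. It was TET1, which oxidises methylcytosine, with 52.1% in HCT15 and 14.7% in DU145. DNMT1 had 25.4% and 16.7% and DNMT3A 10.6% and 10.1%. Of 12 measured germline genes 9 were above 80% in both lines. The calls were 2 (16.7%, against 9.86% of all promoters) toward HCT15 and 1 (8.33%, against 1.78%) toward DU145. BOLL and DMRT1 were higher in HCT15, with 92.7% and 23.9% and with 93.6% and 58.5%, while PIWIL1 was higher in DU145 with 63.6% and 95.4%.

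A mean over the window hid a sharp boundary at some promoters. The study displayed 4 promoters, of which IGFBP3, an insulin-like growth factor binding protein, had 48.8% ± 18.5 in HCT15 and 9.59% ± 20.4 in DU145 (n = 34). SOCS3, a suppressor of cytokine signalling, had 59.98% ± 41.9 and 12.4% ± 23.4 (n = 66), and both were called. In SOCS3 the 19 CpGs upstream of the 5′ end averaged 16.6% and 16.5%, whereas the 47 downstream averaged 77.5% and 10.8%. TERT, the catalytic subunit of telomerase, had 87.2% ± 19.1 and 62.3% ± 41.3 (n = 55), with 83.2% and 44.6% upstream and 94.2% and 93.3% downstream. EPB41L3, a membrane skeleton protein, had 59.3% ± 31.0 and 66.0% ± 16.0 (n = 31), with 6 CpGs called toward HCT15 and 9 toward DU145. CDKN2A, which encodes cell cycle inhibitors, had 10.4% and 10.1% upstream of its outermost 5′ end and 95.4% and 14.2% downstream, on 11 and 7 CpGs. The split into upstream and downstream was made after the values were seen.

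The third line of the series, PC3, is a prostate cancer line as DU145 is. Its RRBS library was not used to call promoters. PC3 was measured at 1856 of the promoters higher in HCT15, where its median was 27.5%, close to the 26.3% of DU145, and it lay nearer to DU145 than to HCT15 at 78.6% of them. At the 316 measured promoters higher in DU145, its median was 56.4%, and it lay nearer to DU145 at 47.5%. Over all measured promoters the share nearer to DU145 was 52.6%. Single genes varied: PC3 had 97.2% at H2BC6 and 94.2% at HOXB4, near DU145, but 14.4% at HOXB13 and 15.3% at CHRM3, near HCT15. At HOXA5 and FOXE1, both higher in HCT15, PC3 had 98.2% and 82.5%.

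MethylCap measured the same lines by capture, without bisulfite. Depth over a promoter was divided by the mean autosomal depth of its library, so that 1 is the library's average. Promoters methylated at 80% or more in both lines had a median of 5.20 in HCT15 and 4.74 in DU145, and those below 20% in both had 0.317 and 0. The depth thus separated methylated from unmethylated promoters in both libraries. Promoters called higher in HCT15 by RRBS had a median of 6.28 in HCT15 and 2.04 in DU145. On the scale of log2(depth + 0.5), the median difference was 1.26 toward HCT15, and 83.4% of them had more depth in HCT15, against 52.04% of all promoters. Promoters called higher in DU145 had medians of 1.73 and 3.49, with a log2 difference of -0.79, and 66.8% had more depth in DU145, against 30.8% of all promoters. Promoters with equal depth, such as those without any in either library, count toward neither share. Of promoters methylated at 80% or more in both lines, 55.7% had more depth in HCT15 and 43.7% in DU145. Leaving out CpGs in CCGG gave 1.21 and -0.68.

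The difference in MethylCap was graded with that in RRBS. At promoters 80 to 100 points higher in HCT15, the median log2 difference was 2.44 and 96.0% had more depth in HCT15. At 20 to 40 points the median was 0.77. At 60 to 80 points toward DU145 the median was -1.47, and at 80 to 100 points, with 11 promoters, it was -1.78. Both libraries of a line came from the same cell line, so this compares measurements and not cultures.

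**Figure D5:**
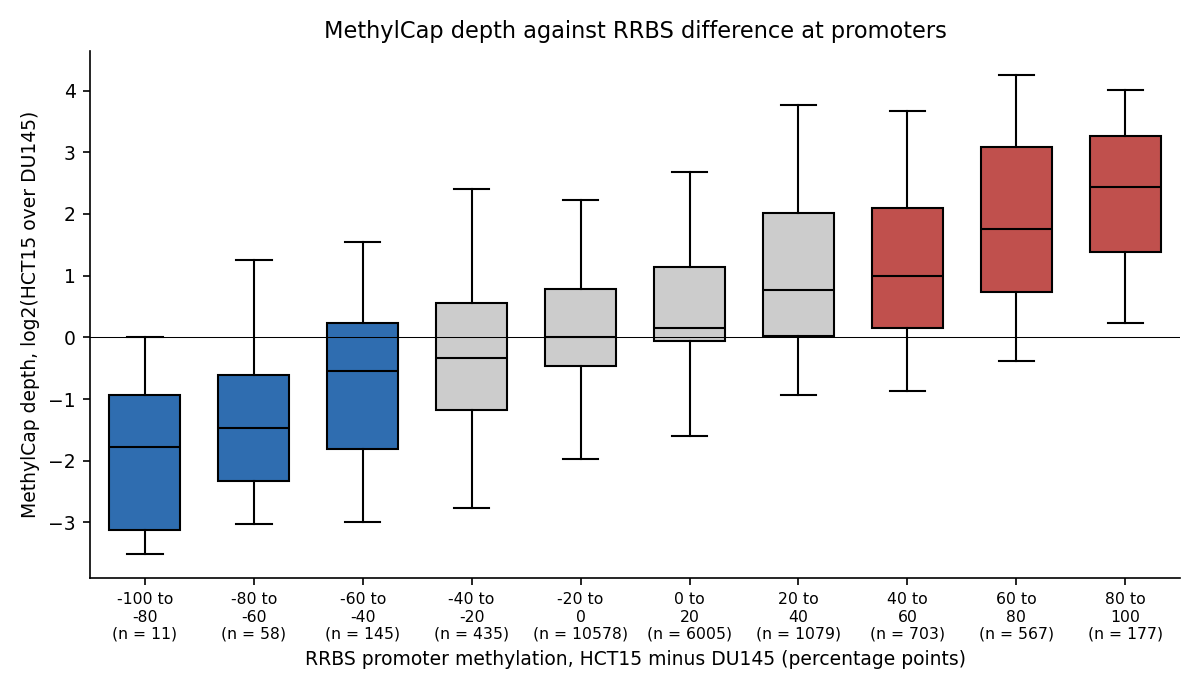
MethylCap depth as log2(HCT15 over DU145) with a pseudocount of 0.5, against classes of RRBS difference in percentage points (HCT15 minus DU145; n promoters in brackets). Boxes span the quartiles, the line is the median and whiskers reach the 5th and 95th percentiles; the median rose from -1.78 at the lowest class to 2.44 at the highest.

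Among gene groups, 52 of the 53 chromosome 19 zinc finger promoters called toward HCT15 had more MethylCap depth in HCT15, with a median log2 difference of 2.55. For homeobox genes outside HOX it was 27 of 37 with a median of 0.83, and for genes reported in colorectal cancer 9 of 13 with a median of 1.14. All 4 colon epithelium genes called toward DU145 had more depth in DU145, but on few fragments. In HCT15 and DU145 these were 12 and 17 at ASCL2, 3 and 3 at HNF4A, 4 and 2 at TFF3 and 1 and 3 at CDX2. ASCL2 alone passed the test of fragments described below. Of the 11 HOX promoters called toward DU145, 6 had more depth in DU145 and 2 had none in either library. The imprinted promoters called toward HCT15 had more depth there in 0 of 2 cases, and the protocadherin promoters called toward DU145 had more depth there in 0 of 2. HOXB4, among the largest differences in RRBS, had 0 fragments in both. HOXB13 had 8 fragments in HCT15 and 1 in the smaller DU145 library. Its log2 difference of 0.93, against the direction of RRBS, thus rests on 1 DU145 fragment. IKZF1 and NDRG4, high in HCT15 by RRBS, had log2 differences of -1.42 and -1.44.

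Single promoters could rarely be tested with the fragments available. The HCT15 library held 3825379 fragments and the DU145 library 811203, so that promoters called toward HCT15 had a median of 19 fragments in HCT15 and 1 in DU145. Fisher's exact test of the fragments in a promoter against the rest of its library (two-sided, Benjamini-Hochberg) called 1 promoter (0.00506%) toward HCT15 and 24 (0.121%) toward DU145. With 0 fragments in DU145, at least 70 in HCT15 were needed to pass at the strictest rank, against 8 in the opposite case. At an unadjusted p below 0.05, 405 promoters had more in HCT15 and 650 in DU145. Of these, 245 of the promoters higher in HCT15 by RRBS had more fragments in HCT15 and 21 fewer, and of those higher in DU145, 91 had more in DU145 and 1 fewer. The promoter called toward HCT15 was CDC37, a chaperone of kinases, with 60 fragments and 0, where RRBS gave 69.6% and 12.5%. Of the 24 toward DU145, 10 were higher in DU145 by RRBS and 1, MDGA2, was higher in HCT15 with 96.7% and 61.3%. SEMA5A, a guidance semaphorin, had 0 and 19 fragments and 13.2% and 47.4% in RRBS, ACTL10 had 6 and 15, CHRM3 had 0 and 9, and ASCL2 had 12 and 17. Windows of neighbouring genes were counted singly, so the 24 are not all separate regions. The window of SEMA5A overlaps that of SNHG18, which is also among the 10, and ARNT2 overlaps ARNT2-DT. MIR3648 and MIR3687, which overlap too, were called with 420 and 396 and with 790 and 482 fragments, while RRBS gave 55.7% and 55.1% and 51.4% and 52.05%. Their depth was far above the library's average of 1, with 130 and 673 at MIR3648 and 218 and 789 at MIR3687.

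Results differed with other kits, and whether capture or library size lay behind this was not tested. MethylMiner depth hardly separated methylated from unmethylated promoters in either line, with medians of 1.80 and 1.70 in HCT15 and of 2.00 and 1.96 in DU145. With it, 35.2% of promoters higher in HCT15 had more depth in HCT15, against 41.7% of all promoters. The DU145 library of MethylCollector held 29202 fragments and had no depth at 70.7% of promoters methylated in both lines. With MethylCollector, 83.6% of promoters higher in HCT15 had more depth in HCT15, against 34.5% of all promoters, and 22.2% of those higher in DU145 had more in DU145, against 9.20%.

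Away from promoters, too, the line with the higher mean followed CpG density. CpGs there with 20 or more per 500 bp averaged higher in HCT15. The means were 67.3% and 62.4% in exons, 63.6% and 61.8% in introns and 69.7% and 67.9% between genes. With under 20 they were 86.2% and 91.4%, 81.8% and 89.4%, and 77.3% and 85.8%. Of 2037 windows of 1 Mb with at least 50 CpGs outside promoters, 1616 had the higher mean in DU145 and 421 in HCT15, with a median difference of -3.80 points. Differences of at least 20 points were found in 29 windows toward DU145 and in 13 toward HCT15. The largest differences toward DU145 were on chromosome 15 at 95000001 to 96000000, which holds MCTP2, with 37.3% in HCT15 and 77.7% in DU145 (n = 56 CpGs), and on chromosome 10 at 78000001 to 79000000, with KCNMA1, a potassium channel, at 61.2% and 91.7% (n = 60). On chromosome 1 at 142000001 to 143000000, with no protein-coding gene, the means were 51.4% and 80.7% (n = 65). Toward HCT15, the window on chromosome 8 at 32000001 to 33000000, which holds NRG1, a growth factor, had 84.7% and 44.8% (n = 79). The window on chromosome 11 at 100000001 to 101000000, with PGR and CNTN5, had 95.1% and 58.97%, and that on chromosome 6 at 127000001 to 128000000, with RSPO3, had 90.7% and 61.0% (n = 86). The CpGs of the 3 windows toward HCT15 had on average between 30.9 and 37.6 CpGs within 500 bp, and those of the MCTP2 window 35.6, against 10.3 and 10.6 in the other two toward DU145. The promoter of KCNMA1 went against its window, with 84.0% in HCT15 and 8.94% in DU145.

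Called CpGs also came in long runs. Runs of at least 20 consecutive measured CpGs called the same way, with gaps of at most 500 bp, numbered 554 toward HCT15 and 37 toward DU145, a rule chosen after the data were seen. The longest toward HCT15 held 90 CpGs overlapping AMH, the anti-Müllerian hormone gene (chr19:2250627-2251606), with means of 97.6% and 20.7%. It was followed by runs of 74 CpGs at FOXB1 and 72 at GABBR2, a GABA receptor subunit. The longest toward DU145 held 76 CpGs in the body of PLXNB2, a plexin (chr22:50737742-50738951), with 12.8% and 98.1%. A run of 57 CpGs at DIO3, an imprinted deiodinase gene (chr14:102027198-102027735), had 8.09% and 97.3%. Over its whole window the DIO3 promoter had 41.99% ± 43.3 and 73.9% ± 28.9, with 35 CpGs called toward DU145 and 20 toward HCT15.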

How the data were processed

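RRBS was performed by a service laboratory, and for each CpG the authors deposited 2 read counts, methylated and total, with both strands added together and with a lowest coverage of 6. The aligner and the restriction enzyme used for RRBS are not given in the sources used here. For MethylCap, MethylCollector and MethylMiner the deposited signal is the depth of uniquely mapped fragments, which the authors mapped with BOWTIE to hg19 (NCBI build 37) without scaling the depth. Within the RRBS files 73000719 reads were counted for HCT15 and 131159436 for DU145.

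From these counts the methylation of a CpG was computed as methylated over all reads. CpGs with a coverage of at least 20 in both lines were tested with a two-sided Fisher's exact test and Benjamini-Hochberg adjustment. Promoter means weight CpGs equally. Fragments were counted from rises in depth. Gene coordinates, the outermost 5′ end of each gene and the sequences came from GENCODE 44 and GRCh37. The members, the gene lists and the limits were chosen with earlier results of these data known. The named genes were the 10 protein-coding promoters with the largest difference in each direction (at least 10 CpGs and 1 MethylCap fragment, 1 gene per overlapping pair), up to 4 called members per list, all called members of the colon and prostate lists, the 4 promoters displayed by the study, and the 3 windows of 1 Mb with the largest difference in each direction. Members that were not called, and genes named in runs of CpGs or from the MethylCap test, were chosen after their values were seen. Intervals are Wilson intervals at the 95% level over pooled reads and cover counting error only. They are too narrow even for that. A read was counted at each CpG it covers, and PCR copies are not independent molecules. The tests were checked on simulated data. Libraries of MethylMagnet and MethylCollector Ultra, PC3 capture libraries and sex chromosomes were not used here. Alternatives were other coverage limits, windows, numbers of CpGs, thresholds, thinning to 20 reads, other scalings and kits, and, added after seeing the data, CpGs in CCGG left out and other coverage limits for the density classes and for PC3. Software was Python 3.11.15, numpy 2.4.6, pandas 2.3.3, scipy 1.17.1 and numba 0.67.0.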

Additional observations from a re-analysis of the deposited data

How the results depend on the processing

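No paired analysis was possible because each line had 1 library per method. In the same way no library could be left out. Promoter calls kept their asymmetry under every alternative run. Those higher in HCT15 and in DU145 numbered 1107 and 141 at a coverage of at least 50, 1064 and 119 at a difference of at least 50 points and 1296 and 124 among protein-coding genes alone. A difference of at least 20 points gave 2526 and 649, and at least 10 CpGs gave 1645 and 163. The number of CpGs called fell to 25898 and 18199 at a coverage of at least 50 and to 50749 and 29295 at a difference of at least 50 points. Thinning both libraries to 20 reads left 64434 toward HCT15 and 44976 toward DU145, against 92169 and 82483 without thinning. The mean methylation of HCT15 and DU145 was 54.4% and 53.1% over pooled reads, 63.8% and 64.4% at a coverage of at least 10, 46.2% and 44.8% at 50, and 52.8% and 51.7% without CpGs in CCGG, so which line had the higher mean depended on the coverage limit. The difference at 1 to 9 CpGs per 500 bp was -9.17 points and moved to -8.65 with windows of 1000 bp (1 to 19 CpGs), -8.99 and -11.1 at a coverage of at least 10 and 50, and -10.4 without CpGs in CCGG. At the densest CpGs it was 8.69 and became 9.15, 9.60, 6.68 and 9.66. With MethylMiner 687 of the promoters higher in HCT15 had more depth in HCT15, and with MethylCollector 78 of those higher in DU145 had more in DU145, against 1625 and 235 with MethylCap. PC3 was nearer to DU145 at 34.2% of promoters higher in DU145 at a coverage of at least 50. Scaling MethylCap on promoters methylated at 80% or more in both lines left the counts nearly as they were. The median log2 differences became 0.70 and -0.47. The depths were divided by nearly equal means, 6.32 in HCT15 and 6.21 in DU145, while the pseudocount stayed at 0.5. It thus weighed more against the smaller scaled depths, so these medians cannot be set beside 1.26 and -0.79. Among promoters called by the rule of the report, 1 higher in DU145 was called the other way with windows of 500 bp and 1 with windows of 2 kb, and no named promoter that was called changed sign. The depth of MethylCap in DU145 limits what can be said of single promoters. Without CpGs in CCGG, the gene lists gained calls in homeobox genes outside HOX (39 toward HCT15 and 3 toward DU145), forkhead genes (12 and 1) and DNA repair genes (2 toward HCT15), while HOX genes had 4 and 9 of 35 measured.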
